A study of Mus musculus with 16 samples.

Results

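Deletions of 11 bp or more whose ends share a short repeat were counted at a meiotic recombination hotspot of mouse chromosome 1 (1 stretch where SPO11 often cuts), in testicular DNA with and without the kinase ATM. A deletion was taken if its aligned sequence was complete, if at least 11 bp were missing, and if the gap could be shifted by at least 2 positions without changing the product. The number of positions it can be shifted by is the length of the repeat, or microhomology. By this rule 212 of the 778 distinct deletions of 11 bp or more had microhomology, each position counted once over all libraries. Counted in each library separately there were 263 of 861. The length and the repeat of each deletion chose the set, so both are given as descriptions of it, and the tests below compare genotypes, which the rule did not use.

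Microhomology can be left when broken ends are joined at a short identical sequence. Both ends are cut back to single strands, the repeats anneal, and 1 copy of the repeat is lost together with the bases between the copies. SPO11 makes the double-strand breaks that start meiotic recombination, and these are mostly repaired by copying the homologous chromosome rather than by joining. ATM is activated by such breaks and holds back further cutting by SPO11 near a break already made.

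The study amplified genomic DNA of testicular cell suspensions by PCR with 22 cycles and sequenced the products. The genotypes were Atm-/- (no ATM), Atm+/- (1 working copy), Atm+/+ (wild type) and Spo11-/- (no SPO11, and so no programmed breaks), all on the C57BL/6 background, adult and aged 2 to 5 months, with spermatocytes given as the cell type. Each of the 4 genotypes was read with 4 overlapping amplicons, 1 library each, which makes 16 libraries. Whole suspensions of mutant testes but only part of those of wild-type testes were used, and meiosis stops early in Atm-/- and Spo11-/- testes, so the make-up of the cells differs between genotypes and was not measured. The number of animals and of genome copies in each PCR is not given in the sources used here, so p-values measure the spread between libraries only, which may be technical.

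The amplicons together covered chr1:33764688-33765556 (mm10), a stretch of 869 bp inside Zfp451, a protein-coding zinc finger gene on the minus strand. Exons and introns were not analysed here. Depth was 2.92 to 5.33 in units of 1e6 reads, and a count of 0 in a library allows a rate of up to 0.562 to 1.03 distinct deletions per 1e6 reads (3 counts). A number in the description labels splits the libraries into 4 sets, called submission sets here, and the 4 Atm-/- libraries make up the first set alone, so genotype and set cannot be told apart for Atm-/-. In the second set (Atm+/+ amplicons 1 and 2, Atm+/- amplicons 3 and 4) the rate of microhomology deletions was 3.88 ± 0.86 per 1e6 reads (SD, n = 4), against 1.63 ± 0.80 (n = 8) in sets 3 and 4. All Spo11-/- libraries are in sets 3 and 4, so this contrast is mixed with genotype. The other libraries there had 2.68 and 1.23 (Atm+/+ amplicons 3 and 4) and 2.49 and 1.49 (Atm+/- amplicons 1 and 2).

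The sequences below are the repeats on which the results turn, each with the bases around it, on the plus strand as the deposited alignments have them. Capitals mark the repeat. A repeat is called joined here where a deletion runs from its left to its right copy. How these deletions arose was not tested. The left copy is the first part of the deleted bases and the right copy follows the deletion, so that 1 copy remains in the product. The first group shows repeats of 4 to 9 bp joined in libraries of 3 or all 4 genotypes.
Deletion of 22 bp at chr1:33765345-33765366, left copy: agtgtctgatTCTGTCTCTgttagcctcc
Deletion of 22 bp, right copy: agcctccacaTCTGTCTCTatgcagcata
Deletion of 187 bp at chr1:33765180-33765366, left copy: tcgcccctctgTCTGTCTCcatagacataa
Deletion of 187 bp, right copy: tagcctccacaTCTGTCTCtatgcagcata
Deletion of 31 bp at chr1:33765045-33765075, left copy: agcagcaccagGGAAGGAGagagccagtgg
Deletion of 31 bp, right copy: gtaacggagaaGGAAGGAGgagggctcaga
Deletion of 45 bp at chr1:33765369-33765413, left copy: agcctccacatcTGTCTCtatgcagcatac
Deletion of 45 bp, right copy: ctaactgagctaTGTCTCcagcatgttact
Deletion of 58 bp at chr1:33765298-33765355, left copy: catgtaaccagacTAGCttccagattacta
Deletion of 58 bp, right copy: attctgtctctgtTAGCctccacatctgtc

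The second group shows repeats of 2 to 4 bp joined in Atm-/- libraries alone. The first 3 share or nearly share a left end, and the last reached 4 reads in 1 library.
Deletion of 123 bp at chr1:33765001-33765123, left copy: agaagaagcagtaaTGccatcacaacgtga
Deletion of 123 bp, right copy: gggacgctgtaggcTGactgttggactgaa
Deletion of 123 bp, product: agaagaagcagtaaTGactgttggactgaa
Deletion of 60 bp at chr1:33765001-33765060, right copy: aaggagagagccagTGgtgtaacggagaag
Deletion of 68 bp at chr1:33764997-33765064, left copy: aacagaagaagcaGTAAtgccatcacaacg
Deletion of 68 bp, right copy: gagagccagtggtGTAAcggagaaggaagg
Deletion of 223 bp at chr1:33765055-33765277, left copy: ccagggaaggagagAGccagtggtgtaacg
Deletion of 223 bp, right copy: taaatgtttgagacAGggtctcatgtaacc

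The first comparison asked whether microhomology deletions were more frequent without ATM. All 4 Atm-/- libraries held more of them than any library of the other genotypes. For amplicons 1 to 4, the Atm-/- libraries had 31, 39, 45 and 26 distinct microhomology deletions, or 8.58, 12.7, 12.1 and 8.02 per 1e6 reads. In the other 12 libraries the rate was 0.299 at the lowest, 2.37 at the median and 4.77 at the highest, so the groups did not overlap. Counts of all deletions of 11 bp or more did not overlap either. They were 102 to 127 in Atm-/- libraries and 4 to 86 in the others. Summed over libraries, 29.9% of them had microhomology in Atm-/- and 31.4% in the other genotypes. Deletions with 0 to 1 bp of microhomology were 7.99-fold more frequent in Atm-/-. The Atm-/- mean rate of microhomology deletions was 10.4 ± 2.39 per 1e6 reads (SD, n = 4 here and for each genotype). Atm+/- had a mean of 2.99 ± 1.25, Atm+/+ one of 2.86 ± 1.46 and Spo11-/- one of 1.28 ± 0.82. The Atm-/- rate was 4.85-fold above the other 3 genotypes on the scale of log2 of the count plus 0.5 per 1e6 reads (log2 difference 2.28, two-sided exact permutation p = 0.0039 within amplicons, the smallest that 256 assignments can give).

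Many of these reads carried other differences from the reference. In Atm-/-, 55.8% of the reads with a microhomology deletion held an undetermined base, against 11.2% in the other genotypes. For reads with a deletion of 0 to 1 bp of microhomology these shares were 63.9% and 18.3%. Of the 212 deletions, 86 were seen in at least 1 read without substitutions. In such reads the Atm-/- libraries held 16, 16, 16 and 11 microhomology deletions, or 4.43, 5.21, 4.31 and 3.39 per 1e6 reads. The other 12 libraries reached from 0.299 to 1.69 with a median of 1.00, again without overlap. This was a 4.20-fold difference (two-sided exact permutation p = 0.0039), with Atm-/- highest in 4 of 4 amplicons. All deletions of 11 bp or more in such reads numbered 31 to 43 in Atm-/- libraries and 1 to 16 in the others. Of these, 39.3% had microhomology in Atm-/- and 55.7% in the others. Deletions that start or stop within 20 bp of their amplicon's midpoint were then left out as well. This left 43 microhomology deletions in Atm-/- and a fold of 3.63 (exact permutation p = 0.0039). The share of microhomology deletions with an end in this stretch of 41 bp was 47.5% for Atm-/-, 34.5% for Atm+/-, 47.9% for Atm+/+ and 10.5% for Spo11-/-. For deletions with 0 to 1 bp of microhomology it was 59.5, 62.1, 86.7 and 4.35% in the same order. Among microhomology deletions it was 52.0% in the second submission set and 10.6% in sets 3 and 4, which hold all Spo11-/- libraries. Without the second submission set the fold was 6.59 over all reads (exact permutation p = 0.0123, the smallest of 81 assignments).

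**Figure D1:**
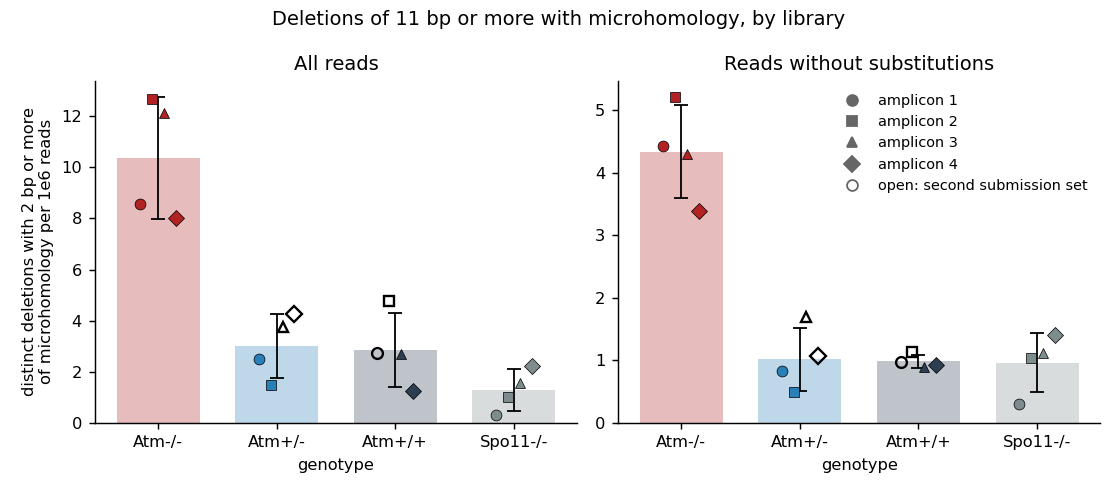
Rate of distinct microhomology deletions per 1e6 reads (vertical axis, linear from 0) in each library, by genotype, for all reads on the left and for reads without substitutions on the right. Bars are means, error bars SD over 4 amplicons, symbols the amplicons, and open symbols the second submission set; the Atm-/- libraries lie between 8.02 and 12.7 on the left and between 3.39 and 5.21 on the right, above every other library.

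Against each genotype alone, Atm-/- was higher in all 4 amplicons, by 3.55-fold over Atm+/-, 3.79-fold over Atm+/+ and 8.50-fold over Spo11-/-. A pair of genotypes gives 16 sign patterns, so the exact permutation p cannot go below 0.125, which is what each pair reached. Without substitutions the 3 folds were 4.20, 4.00 and 4.41. The Spo11-/- libraries held 1, 3, 7 and 8 microhomology deletions, or 0.299, 1.03, 1.56 and 2.24 per 1e6 reads. Their rate was 0.431 times that of Atm+/+ and Atm+/- over all reads (log2 difference -1.21, two-sided exact permutation p = 0.0741), which did not pass 0.05. It passed without amplicon 4, at 0.329 times (exact permutation p = 0.037), and with submission set as a further term it was 0.600 times (exact permutation p = 0.179). Among reads free of substitutions it was 0.928 times that of Atm+/+ and Atm+/- (exact permutation p = 0.765), with means of 0.961 ± 0.469 per 1e6 reads in Spo11-/-, 1.02 ± 0.50 in Atm+/- and 0.983 ± 0.108 in Atm+/+ (SD, n = 4 each). Atm+/- and Atm+/+ differed by 0.10 on the log2 scale (exact permutation p = 0.875, where 0.125 is the smallest possible).

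Reads with such a deletion were counted as well. The Atm-/- libraries had 43.5, 35.8, 36.1 and 20.7 reads with a microhomology deletion per 1e6 reads. The other 12 libraries ranged from 0.299 to 89.0 with a median of 3.48, and the highest was Atm+/+ amplicon 2, where 218 of 392 such reads came from the 31 bp deletion. The difference was 7.98-fold (exact permutation p = 0.0156), with Atm-/- highest in 3 of 4 amplicons. It did not pass 0.05 without amplicon 1, 3 or 4 (exact permutation p = 0.0625 each) or without reads that hold an undetermined base, where it was 3.62-fold (exact permutation p = 0.117). Reads free of substitutions gave 4.48-fold (exact permutation p = 0.0039). Without the second submission set, which holds Atm+/+ amplicon 2, it was 16.1-fold (exact permutation p = 0.0123).

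The second comparison asked which repeats were used. Of the 4 classes of repeat length, the excess of Atm-/- was highest for repeats of 2 bp and lowest for those of 6 bp or more. For repeats of 2 bp the Atm-/- libraries had 4.71, 8.14, 6.19 and 4.32 distinct deletions per 1e6 reads. The other 12 libraries had from 0 to 2.06, with a median of 0.419. This was a 9.94-fold difference (exact permutation p = 0.0039, Benjamini-Hochberg adjusted over 4 classes p = 0.0078). For repeats of 3 bp Atm-/- had 1.94, 2.28, 3.23 and 1.54 per 1e6 reads, and the others from 0 to 1.36. The difference was 6.56-fold (exact permutation, adjusted p = 0.0078), and Atm-/- was highest in 4 of 4 amplicons for both classes. Without amplicon 2 both had an adjusted p of 0.0625 by the exact permutation test. Without the second submission set, a choice added after the data were seen, the folds were 17.5 and 8.35 (exact permutation, adjusted p = 0.0247 each).

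Repeats of 4 to 5 bp gave 1.38, 1.95, 1.35 and 0.926 deletions per 1e6 reads in Atm-/-. The other libraries reached 1.11, and the 2.79-fold difference did not pass 0.05 after adjustment (exact permutation, adjusted p = 0.0573). Among reads free of substitutions it was 3.29-fold and passed (exact permutation, adjusted p = 0.0313), but not when the second submission set was left out too, at 3.30-fold (exact permutation, adjusted p = 0.0823). For repeats of 6 bp or more the groups overlapped widely. Atm-/- had 0.554, 0.325, 1.35 and 1.23 such deletions per 1e6 reads, inside the range of 0 to 2.08 of the other 12 libraries. The fold was 1.35 over all reads (exact permutation, adjusted p = 0.473) and 1.20 in reads without substitutions (adjusted p = 0.695). Against Atm+/+ alone it was 0.753 and against Spo11-/- 2.83, and neither pair can reach 0.05.

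Deletions with no microhomology were 8.96 times and those with 1 bp 8.07 times as frequent in Atm-/- as in the others, close to the 9.94 of 2 bp repeats. For reads free of substitutions the folds over the classes of 0, 1, 2, 3, 4 to 5 and 6 or more bp were 8.14, 7.88, 8.33, 3.45, 3.29 and 1.20. With no end near the midpoint either, the fold was 2.59 for 3 bp and 2.84 for 4 to 5 bp. The order of these classes thus turned on this scale, where the 0.5 added to each count weighs on low counts. There were 5 such deletions of 3 bp in Atm-/- and 3 in the others, and 9 and 11 of 4 to 5 bp. Mean rates per 1e6 reads were 0.354 against 0.0706 for 3 bp and 0.659 against 0.223 for 4 to 5 bp. By these means the order did not turn. No test was run between classes one by one. Around the limit of 2 bp that defines the set, Atm-/- libraries held 128 deletions with 1 bp and 79 with 2 bp, and the other genotypes 95 and 42. At the length limit, Atm-/- had 5 deletions of 10 bp, 2 of them with microhomology, and 8 of 11 bp, 1 of them with microhomology.

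**Figure D2:**
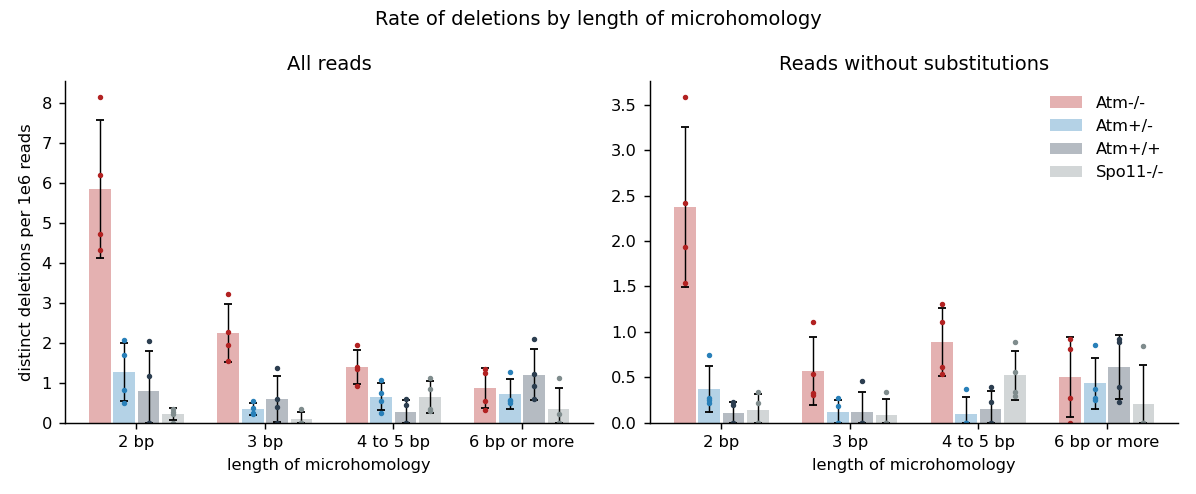
Rate of distinct deletions per 1e6 reads (vertical axis, linear from 0) by length of microhomology and genotype, for all reads on the left and reads without substitutions on the right. Bars are means over 4 libraries, points the libraries and error bars SD, ended at 0 where they would go below; Atm-/- stands out at 2 bp (mean 5.84 against 0.763 in the other genotypes) and lies among the others at 6 bp or more (0.865 against 0.753).

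The make-up of the set therefore differed between genotypes. The repeat was 4 bp or longer in 22.6, 17.9, 22.2 and 26.9% of the microhomology deletions of the Atm-/- libraries. In the other 12 libraries this percent was 28.6 at the lowest, 52.5 at the median and 100.0 at the highest. The difference of the means, 22.4 ± 3.67% against 61.7 ± 26.8% (SD, n = 4 and 12), was -39.3 points (two-sided exact permutation p = 0.0117), and Atm-/- was lowest in 4 of 4 amplicons. Over reads without substitutions the means were 33.2% and 70.1%, a difference of -36.9 points (exact permutation p = 0.0039). Some of these percents rest on few deletions, down to 1 in Spo11-/- amplicon 1. Without amplicon 4 the difference was -34.4 points and did not pass (exact permutation p = 0.0625), and without deletions found in more than 1 genotype of an amplicon it was -37.9 points (exact permutation p = 0.1875, from 16 assignments).

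The ratio of deletions with to those without microhomology in a library was 0.608 times as high in Atm-/- as in the others over all reads (log2 difference -0.72, exact permutation p = 0.262), and 0.429 times as high without the second submission set (exact permutation p = 0.037). In reads without substitutions it was 0.462 times as high (log2 difference -1.11, exact permutation p = 0.0195). With the limit set at 4 bp in place of 2 bp, the ratio was 0.220 times as high over all reads (exact permutation p = 0.0039).

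The observed repeats can be set beside all the places where deletions of the same lengths could lie in the same amplicons. Each start position was counted, or each distinct product once, since placements that shift within a repeat give the same product. Repeats of 6 bp or more make up 0.336% of start positions and 0.0594% of products for the lengths seen in Atm-/-, and 0.461% and 0.0789% for those of the other genotypes. Among the observed deletions they made up 2.54% in Atm-/- (12 of 472, exact Clopper-Pearson 95% interval 1.32 to 4.40%) and 9.25% in the others (36 of 389, 6.57 to 12.6%). These counts take a deletion again in each library that holds it. With each deletion taken once, they were 12 of 450 in Atm-/- (2.67%) and 15 of 351 in the others (4.27%). Repeats of 2 bp were 16.7% of the Atm-/- deletions against 10.9% of start positions and 4.90% of products, and 10.8% of those of the other genotypes against 11.1% and 5.04%. In reads without substitutions, 6 bp or more made up 4.67% of Atm-/- deletions and 22.7% of the others (20 of 88, 14.5 to 32.9%). These percents again take a deletion in each library that holds it. With each deletion taken once, they were 7 of 144 in Atm-/- and 9 of 73 in the others. The intervals cover counting error only, since the reads carry no molecular identifiers, and deletions of 1 library share their PCR.

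**Figure D3:**
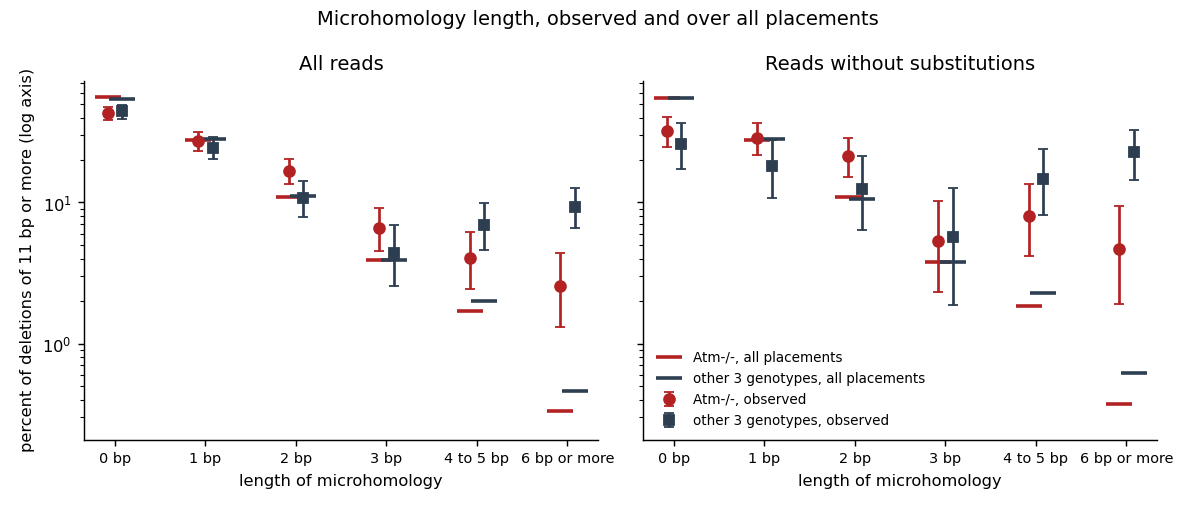
Percent of deletions of 11 bp or more (vertical axis, log scale) in each class of microhomology length, for all reads on the left and reads without substitutions on the right. Points with exact 95% intervals are the observed percents and short lines the percent over all start positions of deletions of the same lengths, with a deletion counted in each library that holds it; at 6 bp or more the points lie above the lines, at 2.54% in Atm-/- and 9.25% in the other genotypes over all reads.

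Deletions with repeats of 6 bp or more were often found in more than 1 genotype. Of the 212 microhomology deletions, 25 (11.8%) were found in 2 or more libraries and 19 (8.96%) in 2 or more genotypes. Of the 566 deletions with 0 to 1 bp of microhomology, 24 (4.24%) were found in 2 or more libraries and 13 (2.30%) in 2 or more genotypes. Among those with repeats of 2 to 3 bp, 4 of 158 (2.53%) were shared between genotypes. For 4 to 5 bp the count was 4 of 35, and for 6 bp or more 11 of 19. Of the 131 distinct microhomology deletions of Atm-/-, 13 (9.92%) were seen in another genotype, against 15 of 51 (29.4%) in Atm+/-, 13 of 42 (31.0%) in Atm+/+ and 8 of 18 (44.4%) in Spo11-/-. The shared ones in Atm-/- were 1 of 74 with 2 bp, 1 of 29 with 3 bp, 3 of 16 with 4 to 5 bp and 8 of 12 with 6 bp or more.

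The amplicons hold 47 pairs of repeats of 6 bp or more whose joining would remove 11 to 229 bp, the longest deletion listed. Of these, 19 pairs (40.4%) were found joined in at least 1 library. Atm-/- showed 12 of the 47, Atm+/- 10, Atm+/+ 12 and Spo11-/- 5. Of the 6 pairs of 8 bp or more, 4 were found. The only pair of 9 bp, printed above with the 22 bp deletion, was found in all 4 genotypes, in 5 of the 8 libraries that cover it. It had 1 read in Atm-/- (amplicon 4), 3 and 2 in Atm+/- (amplicons 3 and 4), 2 in Atm+/+ (amplicon 3) and 3 in Spo11-/- (amplicon 4).

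Several of these pairs share bases, so they are not independent. The letters TGTCT lie in 12 of the 47 possible pairs and in 7 of the 19 found, a group chosen after its values were seen. These 7 deletions were 17 to 204 bp long and had 48 reads in all. The 187 bp deletion was found in all 4 genotypes, with 2 reads in Atm-/-, 4 in Atm+/-, 2 and 1 in Atm+/+ and 1 in Spo11-/-. Shifted by 4 bp at its left end, the deletion of 191 bp at chr1:33765176-33765366 (repeat TCTGTCT) was found in Atm-/-, Atm+/- and Atm+/+ with 2, 2 and 3 reads. The 45 bp deletion had 5 reads in Atm-/-, 2 in Atm+/-, 1 and 2 in Atm+/+ and 6 in Spo11-/-.

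The 58 bp deletion with the 4 bp repeat TAGC was the one found in all 4 genotypes with a repeat under 6 bp. It had 3 and 1 reads in Atm-/-, 2 in Atm+/-, 5 in Atm+/+ and 2 and 1 in Spo11-/-, in 6 of the 12 libraries that cover it. The deletion of 14 bp at chr1:33765456-33765469 (repeat CCATAAA) had 1 read in Atm-/-, 2 in Atm+/- and 3 and 2 in Atm+/+, and none of these reads was free of substitutions. The 31 bp deletion with the repeat GGAAGGAG was found in 7 libraries, more than any other. It had 218 reads in Atm+/+ amplicon 2, from 1 to 5 reads in the other 6 libraries, and none in Spo11-/-. The reads of this deletion in amplicon 2 of Atm+/+ thus came to more than those of all other libraries together. All 4 amplicons cover the same bases, but its right end lies near the midpoint of amplicon 2 alone. The other amplicon 2 library that held it, of Atm+/-, had 1 read. Whether this position bears on the number of reads was not tested.

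**Figure D4:**
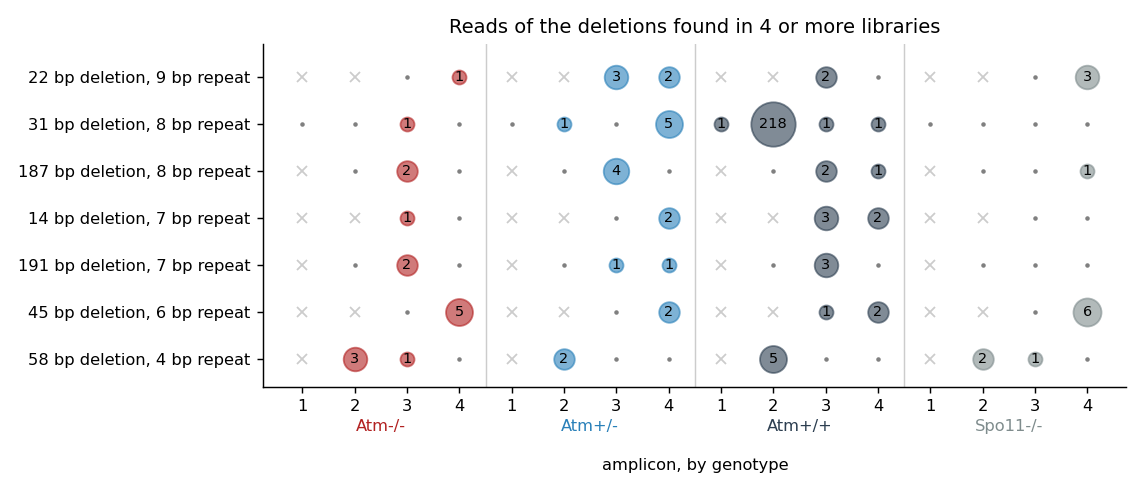
Reads of the 7 microhomology deletions found in 4 or more libraries (rows, named by deletion and repeat length) in each of the 16 libraries (columns, amplicons 1 to 4 within each genotype). Circles give the number of reads, with area growing with its log2, small dots mark 0 reads, and crosses mark amplicons that do not cover the deletion; the 31 bp deletion has 218 reads in Atm+/+ amplicon 2 and at most 5 elsewhere.

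Spo11-/- libraries held few microhomology deletions, and 14 of the 18 had repeats of 4 bp or more. The distinct deletions had repeats of 2 bp in 3 cases, 3 bp in 1, 4 to 5 bp in 9 and 6 bp or more in 5. In the class of 4 to 5 bp Atm-/- was 2.07-fold above Spo11-/- over all reads (exact permutation p = 0.125) and 1.55-fold in reads without substitutions (exact permutation p = 0.375). The 9 deletions of this class were 13 to 223 bp long, 7 were seen in no other genotype, and 8 had a single read. An example is the deletion of 172 bp at chr1:33765031-33765202 with the repeat GGCA, chosen after its value was seen, with 1 read free of substitutions. Of the reads of Spo11-/- microhomology deletions 64.3% had no substitution, against 18.8% in Atm-/-, 17.7% in Atm+/- and 10.5% in Atm+/+, and none held an undetermined base.

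Microhomology deletions found in Atm-/- alone mostly had short repeats and were mostly found in 1 library, and a few recurred. The 123 bp deletion with the repeat TG was found in Atm-/- amplicons 1, 2 and 3 with 1, 2 and 2 reads, 2 of them free of substitutions. The 68 bp deletion with the repeat GTAA had 1 read in each of the same 3 amplicons. The 223 bp deletion with the repeat AG had 6 reads in 2 amplicons, 4 of them free of substitutions. The 60 bp deletion with the repeat TG had 6 reads in amplicon 2, 5 of them free of substitutions, and the deletion of 143 bp at chr1:33765010-33765152 (repeat AAC) had 3 reads in amplicon 1, all free of them. None of these 5 was seen in another genotype, and of the 5 the 223 bp one alone had an end near an amplicon's midpoint. The deletion of 40 bp at chr1:33765214-33765253 (repeat TTT) also recurred, with 1 read in amplicon 3 and 3 in amplicon 4 of Atm-/-. All 4 reads held an undetermined base, their median was 51.5 substitutions, and an end lay near the midpoint in both amplicons.

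The left ends of several such deletions lay close together. In the 5 bp of chr1:33764997-33765001, the stretch of this width with the most left ends in Atm-/- and so chosen on these values, 14 distinct Atm-/- deletions of 13 to 228 bp began. Of these, 10 were seen in reads without substitutions, 1 started or stopped near an amplicon's midpoint, and none of their 41 reads held an undetermined base. The other 3 genotypes had 1 deletion, with 1 read, that began there. Deletions with 0 to 1 bp of microhomology that begin there were not counted. These values thus do not show whether the left ends are particular to microhomology deletions. At position 33765001 alone, 5 deletions began, 4 joined through TG and 1 through TGCC, and at 33764999 another 4 began, all joined through AA. Amplicon 4 starts at 33764983, a few bases before this stretch, and the ends of the amplicons match the primers. Whether amplicon 4 can show deletions that begin in this stretch was not examined.

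Of the 74 distinct Atm-/- deletions with a 2 bp repeat, 12 were joined through AA, 11 through TG and 9 through AG. The other genotypes had 41 such deletions, of which 13 were joined through AG, 2 through AA and none through TG. Among all possible 2 bp joints of these lengths AA made up 14.4%, AG 10.4% and TG 7.69%. These counts are a description, since the deletions at a shared end are not independent.

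The Atm-/- deletions with the most reads were of another kind. The deletion of 181 bp at chr1:33764783-33764963 (repeat AAT) had 75 reads in amplicon 1, 60 of them with an undetermined base and 6 without substitutions. The deletions of 199 bp at chr1:33764876-33765074 (repeat AG), 201 bp at chr1:33764990-33765190 (repeat AGA) and 128 bp at chr1:33765128-33765255 (repeat TG) had 16, 24 and 21 reads in amplicons 2, 3 and 4. Every one of those reads held an undetermined base. Each of the 4 started or stopped near the midpoint of its amplicon. By class, an undetermined base was found in 61.1% of the Atm-/- reads with repeats of 2 to 3 bp, in 16.1% with 4 to 5 bp and in none of the 18 reads with 6 bp or more. The part of these reads in the difference by class was not tested beyond the values given for reads without substitutions.

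In the other genotypes the 31 bp deletion had the most reads of amplicon 2 and the 45 bp one those of amplicon 4. The most-read ones of amplicons 3 and 1 were those of 34 bp at chr1:33765160-33765193 (repeat CA), with 23 reads in Atm+/-, and of 26 bp at chr1:33764984-33765009 (repeat AAC), with 14 reads in Atm+/+. Neither was seen in a read without substitutions. Both started or stopped near the midpoint of their amplicon. So did the 31 bp deletion in amplicon 2, but not the 45 bp one. None of the reads of these 4 deletions held an undetermined base. The deletion of 32 bp at chr1:33765043-33765074 (repeat AGG) lay 2 bp to the left of the 31 bp deletion and had 4 and 1 reads in Atm-/- amplicons 2 and 3 and 72 in Atm+/+ amplicon 2; 9 reads were free of substitutions.

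Over all reads, microhomology deletions were longer in Atm-/-. Lengths of deletions with 0 to 1 bp of microhomology were not compared, so whether this is particular to the set was not tested. The median length of microhomology deletions was 131, 122, 123 and 73.0 bp in the Atm-/- libraries. In the other 12 libraries the medians ran from 18.0 to 144 bp, with 37.0 bp as their middle value. The difference of the mean of medians was 64.3 bp (two-sided exact permutation p = 0.0078) and 56.0 bp without the second submission set (exact permutation p = 0.0741). Reads without substitutions gave 19.4 bp (exact permutation p = 0.434). Leaving out ends near the midpoint too turned it to -18.0 bp (exact permutation p = 0.477).

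By class, the distinct Atm-/- deletions with 2 bp repeats had a median length of 145 bp and 46 of 74 were 100 bp or longer, against 30.0 bp and 4 of 41 in the other genotypes. In reads without substitutions the medians were 86.0 and 34.0 bp, with 15 of 31 and 1 of 11 at 100 bp or more. For repeats of 6 bp or more the median was 77.0 bp for Atm-/- deletions and 59.0 bp for those of the other genotypes. No test was run on these lengths by class.

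**Figure D5:**
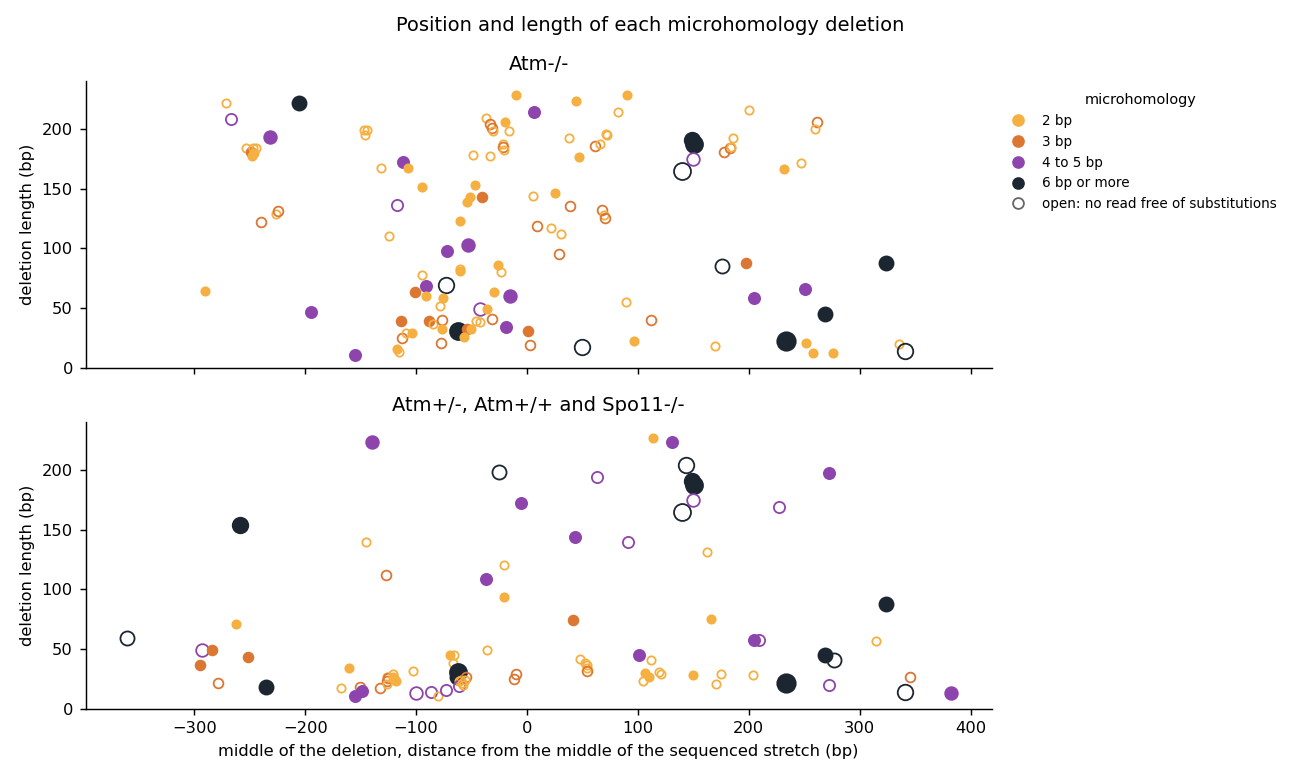
Length of each distinct microhomology deletion in bp (vertical axis) against the distance of its middle from the middle of the sequenced stretch in bp (horizontal axis), for Atm-/- above and the other 3 genotypes below. Colour and size give the repeat length, and open circles had no read free of substitutions in these genotypes; in Atm-/- the deletions with 2 bp repeats have a median length of 145 bp, against 30.0 bp in the other genotypes.

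The window that most Atm-/- microhomology deletions overlapped lay just left of the middle of the sequenced stretch. In windows of 50 bp, 65 of the 131 distinct deletions overlapped chr1:33765038-33765087, the window with the most, and 56 the next one to the right, which holds the middle. In reads without substitutions 32 of 58 overlapped the same window, against 8 of 36 in the other genotypes. The window was picked for its Atm-/- count, which favours Atm-/- in this contrast, and the contrast was not tested. A longer deletion is also more likely to overlap a given window. Among these reads the other genotypes had the shorter deletions, with a median of 45.0 against 74.5 bp. In the other genotypes the most overlapped windows held 26 deletions over all reads, at chr1:33765188-33765237, and 10 in reads without substitutions, in the same window. Windows near the middle are covered by all 4 amplicons and those at the ends by 1, so counts between windows also follow the coverage.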

How the data were processed

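Amplicon DNA of 16 libraries (4 genotypes, 4 amplicons each) was analysed from tables that list, for each library, the distinct aligned sequences with 1 deletion. Per the file headers, the authors' counts are raw reads of every listed sequence. A second deposited column holds the same as a percent of the library's reads, and dividing counts by it gave the depth of 2.92 to 5.33 in units of 1e6 reads. The headers have the layout of CRISPResso output, with no version or setting named (not given in the sources used here). Per the submitters' processing notes the build is mm10. The files' positions may start at 0 or at 1; with no genome sequence at hand this was not settled.

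Of 73567 rows, 25 with an aligned sequence of another length than the amplicon were left out, and 2699 had a deletion of 11 bp or more. The reference of each amplicon was the commonest base at each position over the rows (at least 93.3% of rows away from the 20 bp at each end). It matched all 8 primers of the labels, and overlapping amplicons had 0 bases in conflict. Each deletion was moved to its left-most position, and its microhomology was the number of positions it could be shifted by. No filter on low values was applied. Rates used log2 of the count plus 0.5 per 1e6 reads. Genotypes were compared by exact permutation within amplicons, because the replicate number of the labels is the amplicon, with 256 assignments for Atm-/- (smallest p 0.0039), 81 for Spo11-/- (smallest p 0.0123) and 16 for pairs (smallest p 0.125). Benjamini-Hochberg adjustment was over the 4 classes of repeat length. Python 3.11.15, NumPy 2.4.6 and SciPy 1.17.1 were used, and figures were drawn with matplotlib 3.10.9. The placement and the test were tested on simulated data.

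Deletions were named by rule: those in 4 or more libraries; in each amplicon the one with the most reads in Atm-/-, over the other genotypes, and in clean Atm-/- reads away from the middle; the 5 longest repeats; and up to 6 recurring in Atm-/- amplicons. Others named were chosen after their values were seen, as stated there. The set, the classes and the tests were chosen with earlier results of these data known. Alternatives covered which reads and deletions entered, the limits, the block, the second submission set and each amplicon left out. Sequences are from the deposited alignments; gene names are from RefSeq (GRCm38.p6).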

Additional observations from a re-analysis of the deposited data

Results flagged for a closer look

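Of the 32 groups of 4 libraries checked for a single library far from the others, 3 held one, and chance marks about 1 group in 20. In Atm+/+, amplicon 2 had 89.0 reads with a microhomology deletion per 1e6 reads, against 1.84 to 10.2 in the other amplicons of that genotype. The same library had 7.95 such reads per 1e6 in reads without substitutions, against 0.981 to 1.49 in the other amplicons. In both cases most of its reads came from the 31 bp deletion with the repeat GGAAGGAG, whose right end lies near the midpoint of amplicon 2. In Atm-/-, amplicon 4 had a median length of microhomology deletions of 73.0 bp, against 122 to 131 bp in the other amplicons.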

How the results depend on the processing

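The higher rate of distinct microhomology deletions in Atm-/- kept its direction and passed 0.05 under all 21 alternatives, with folds of 1.91 (repeats of at least 4 bp) to 8.22 (without deletions found in more than 1 genotype). Without the amplicon block its exact permutation p was 0.00055 at the same difference of 2.28. Other results moved as follows, in log2 units unless given in points or bp, and the causes were not tested. Reads with a microhomology deletion: 1.85 without undetermined bases (exact permutation p = 0.117) and 2.60 to 3.21 with 1 amplicon left out, where the values without amplicon 1, 3 or 4 did not pass. The ratio of deletions with to those without microhomology passed at -1.11 in reads without substitutions, -1.50 with ends at the middle left out too, -2.18 with repeats of at least 4 bp, -1.22 without the second submission set and -1.30 with both of the first and last choices. The percent with 4 bp or more did not pass at -37.9 points without shared deletions or -26.1 with clean reads too, and was -45.9 to -34.4 points with 1 amplicon left out. The median length difference did not pass at 19.4 bp in reads without substitutions, 26.2 bp without undetermined bases, 65.0 bp without shared deletions, 56.0 bp without the second set, 14.1 bp with clean reads and without that set, and 27.7 bp with clean reads and without shared deletions; it turned to -18.0 bp in clean reads with no end at the middle. With 1 amplicon left out, the 2 bp class was at 3.17 to 3.39 and the 3 bp class at 2.51 to 2.99, both with an adjusted exact permutation p of 0.0625 without amplicon 2. The 4 to 5 bp class was at 1.25 to 1.66 and passed without amplicon 4, at 1.72 in clean reads and at 1.51 with no end at the middle too. Spo11-/- against Atm+/+ and Atm+/- was at -1.21 without the block (exact permutation p = 0.0283), -0.74 with submission set as a further term, -1.60 to -0.75 with 1 amplicon left out, passing without amplicon 4, and 0.16 in clean reads with no end at the middle. Atm+/- against Atm+/+ turned to -0.069 in clean reads and was -0.42 to 0.66 with 1 amplicon left out, with -0.020 without amplicon 3. The 6 bp class kept its side in all 9 alternatives (0.26 to 0.63). The settings that join clean reads with another choice of set or shared deletions, and those of the classes without the second set or undetermined bases, were chosen after seeing the data.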
